A study of Danio rerio with 39 samples.

Results

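*fkbp5* is the zebrafish gene for FK506 binding protein 5, a cochaperone that binds HSP90, and it is described here on every array of a time course of zebrafish embryos given dioxin (TCDD, 2,3,7,8-tetrachlorodibenzo-*p*-dioxin). All probes for zebrafish sequence whose deposited gene name is *fkbp5* were taken, which gave 1 probe of 21495. The gene was chosen by its measured values, a higher level in TCDD-exposed than in control embryos late in the course. The TCDD against vehicle control values of *fkbp5* are therefore given as a description and carry no test.

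The 39 arrays came from 10 groups, in 4 independent experiments. AB* embryos received 1 ng/mL TCDD in the water for 1 h, from 4 to 5 h after fertilization, or the DMSO carrier alone (vehicle control), and RNA was taken on days 1, 2, 3, 4 and 5. Every embryo was of the same wild-type line, no group carried a mutation or a transgene, and each RNA sample was a pool of whole embryos. Each group held 4 arrays, 1 from each experiment, except TCDD on day 2, which held 3 because replicate 1 was lacking. Embryo RNA was labeled with Cy5 on every array and hybridized against Cy3-labeled RNA of Zf4, a zebrafish embryonic fibroblast line, so each value is a log2 ratio of embryo to Zf4 signal. In RNA from whole embryos, fewer cells of a type and less RNA per cell cannot be told apart. The labels describe a TCDD exposure for all samples, DMSO samples included, and the treatment was read from each sample's title.

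In mammals, FKBP5 sits with HSP90 on the unliganded glucocorticoid receptor and lowers its affinity for hormone. The hormone-bound receptor in turn switches on the FKBP5 gene, which closes a short feedback loop and makes FKBP5 a common readout of glucocorticoid action. The aryl hydrocarbon receptor (AHR), through which TCDD acts, also waits in the cytosol in a complex with HSP90 and the p23 cochaperone. In fish the steroid that activates the glucocorticoid receptor is cortisol, and larvae begin to make their own around hatching.

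The exposure was visible on all days. *cyp1a*, the cytochrome P450 gene that the activated AHR switches on, was higher under TCDD by 4.31 ± 0.44 (log2, SE) on day 1, by 6.33 ± 0.48 on the second, by 6.61 ± 0.44 on the third, by 6.31 ± 0.44 on the fourth and by 5.72 ± 0.44 on the fifth. All 5 differences passed the test (limma, adjusted p between 2.79e-11 and 1.45e-06) and all 19 pairs of arrays from 1 experiment and day were higher under TCDD. The *fkbp5* spot was well above background in both channels on 39 of 39 arrays and saturated or marked as an outlier on 0. On single arrays 16329 to 18624 probes exceeded background in the embryo channel.

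The *fkbp5* level was higher on day 5 than on day 1 in both treatments. It stood at 2.17% (vehicle control) and 2.24% (TCDD) of the Zf4 level on day 1, and at 14.5% and 68.6% on day 5. In between, TCDD read 2.06% on day 2, and the vehicle control peaked at 28.9% on day 4. On day 1 the vehicle control arrays of experiments 1 to 4 read −5.72, −5.55, −5.51 and −5.32 (log2 embryo over Zf4). The TCDD arrays of the same day read −5.06, −5.38, −5.90 and −5.58. The groups overlapped fully, with group means of −5.53 ± 0.17 and −5.48 ± 0.35 (SD, n = 4 each).

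On day 2 the vehicle control arrays read −5.09, −5.44, −3.94 and −4.51. The TCDD arrays of experiments 2, 3 and 4 read −6.00, −5.58 and −5.22. Each of these 3 lay below the control array of its own experiment, although the groups' ranges overlapped, and the mean difference was −0.85 ± 0.33 (log2, SE), a 1.81-fold lower level. With normexp background correction and loess together this difference was −0.42. On day 3 the vehicle control read −2.60, −3.29, −2.37 and −3.10, and TCDD read −2.81, −2.99, −3.09 and −2.48. The means of that day, −2.84 ± 0.43 and −2.84 ± 0.27 (SD, n = 4 each), differed by less than 0.01, with 2 experiments higher and 2 lower under TCDD.

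The treatments parted on day 4. The vehicle control read −1.29, −2.33, −1.77 and −1.77, and TCDD read −0.74, −1.28, −0.97 and −0.57. The lowest TCDD array stood just above the highest control array, so the ranges did not overlap, and the mean difference was 0.90 ± 0.30 (log2, SE), a 1.86-fold higher level. On day 5 the vehicle control had come back to −2.67, −2.60, −2.57 and −3.31, while TCDD read −0.07, −1.60, −0.29 and −0.21. The gap was 2.25 ± 0.30 (log2, SE), a 4.74-fold higher level under TCDD, with no overlap. Under TCDD 3 of the 4 day 5 arrays lay above every vehicle control array of any day, and the array of experiment 2 was the exception. All 4 TCDD arrays of day 4 also lay above the highest vehicle control array of the series.

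**Figure D1:**
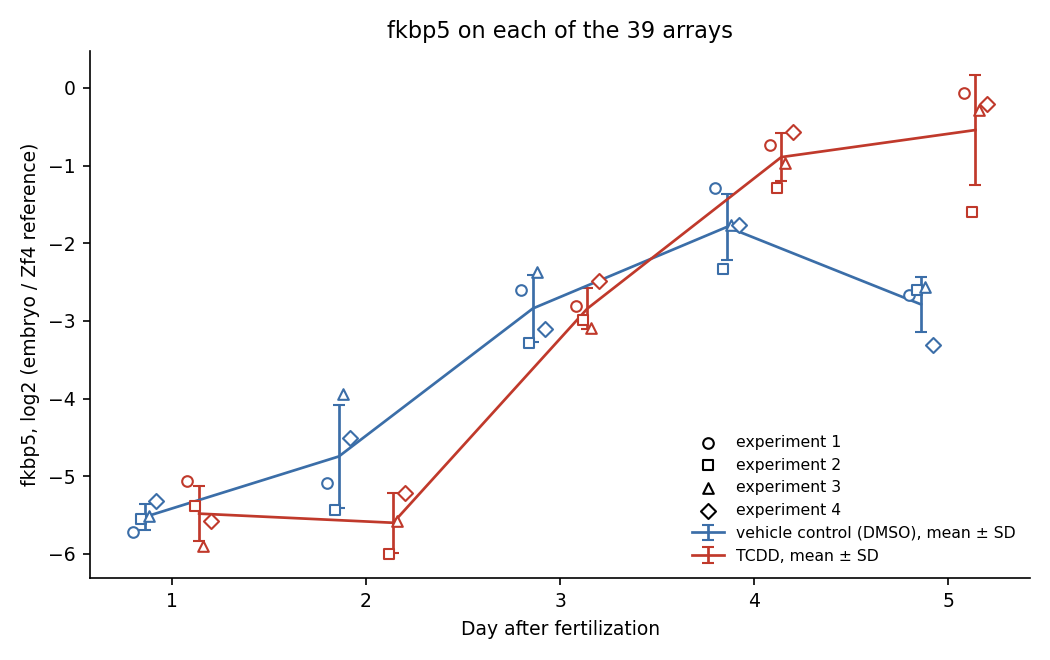
The log2 ratio of *fkbp5* signal in embryo RNA over Zf4 reference RNA (vertical axis) is plotted against day after fertilization for each array, with open symbols for the 4 experiments and lines for group means ± SD. The 2 treatments ran together on days 1 and 3, and on day 5 the TCDD arrays sat between −1.60 and −0.07 while the vehicle control arrays sat between −3.31 and −2.57.

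Experiments are best compared within themselves, since the arrays of 1 replicate number came from 1 independent experiment. Within experiments 1 to 4 the day 4 difference was 0.55, 1.05, 0.80 and 1.2, and the day 5 difference was 2.60, 1.00, 2.28 and 3.10 (log2). All 8 differences on these days were positive. In linear terms the day 5 excess ran from 2.00-fold in experiment 2 to 8.59-fold in experiment 4. On day 2 the differences of experiments 2, 3 and 4 were −0.56, −1.64 and −0.71, and on days 1 and 3 each sign occurred in 2 experiments.

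**Figure D2:**
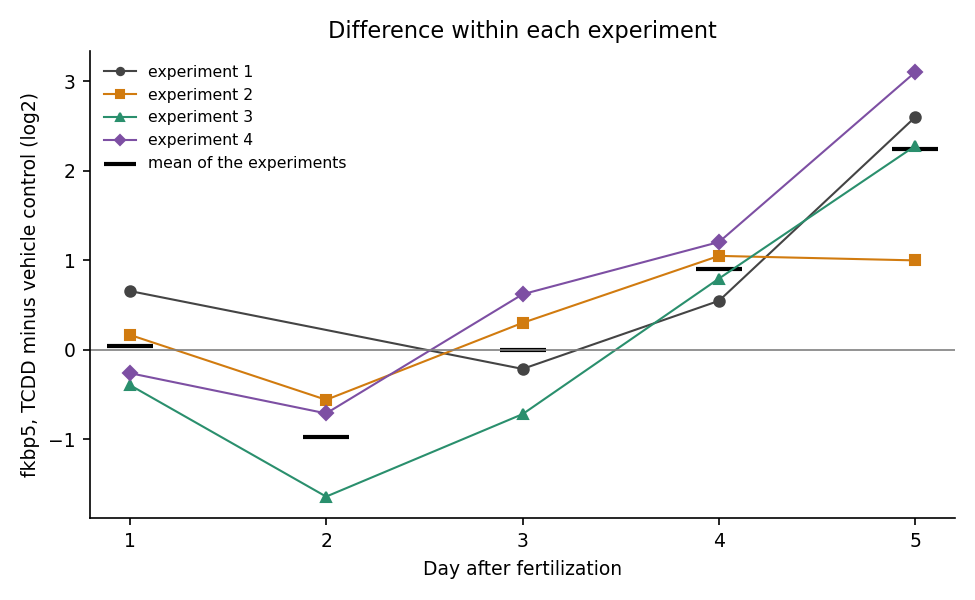
TCDD minus vehicle control for *fkbp5* (log2, vertical axis) within each experiment, joined across days, with the mean of the experiments as a bar. Experiment 2 stayed near 1.00 on day 5 while the other 3 reached 2.28 to 3.10, and experiment 1 has no TCDD array on day 2.

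The arrays had been scanned in 3 sessions of 4, 24 and 11 arrays, the last of which held all arrays of experiment 4 and 1 TCDD array of experiment 3. Within the second session the difference was −1.10 on day 2, 0.80 on day 4 and 1.78 on day 5. Within the last it was −0.71, 1.2 and 3.06. The first session held no array of both treatments on those days. The sign on each of these 3 days was thus the same in both sessions, with a single array on 1 or both sides in the last.

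The change lay in the embryo channel. The background-subtracted embryo signal of *fkbp5* on day 5 ran from 990 to 1535 in the vehicle control and from 2608 to 8370 under TCDD, without overlap. The Zf4 signal of the same spot averaged 8140 in the vehicle control and 7256 under TCDD on day 5, and over all 39 arrays it stayed between 3880 and 11423. Across the series the embryo signal spanned a 57.0-fold range and the Zf4 signal a 2.94-fold range. On days 1 and 2 the embryo signal was low, from 147 to 494. The scanner software's own error of the ratio was then 0.35 to 0.59 (log2), against 0.17 to 0.31 on days 4 and 5.

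**Figure D3:**
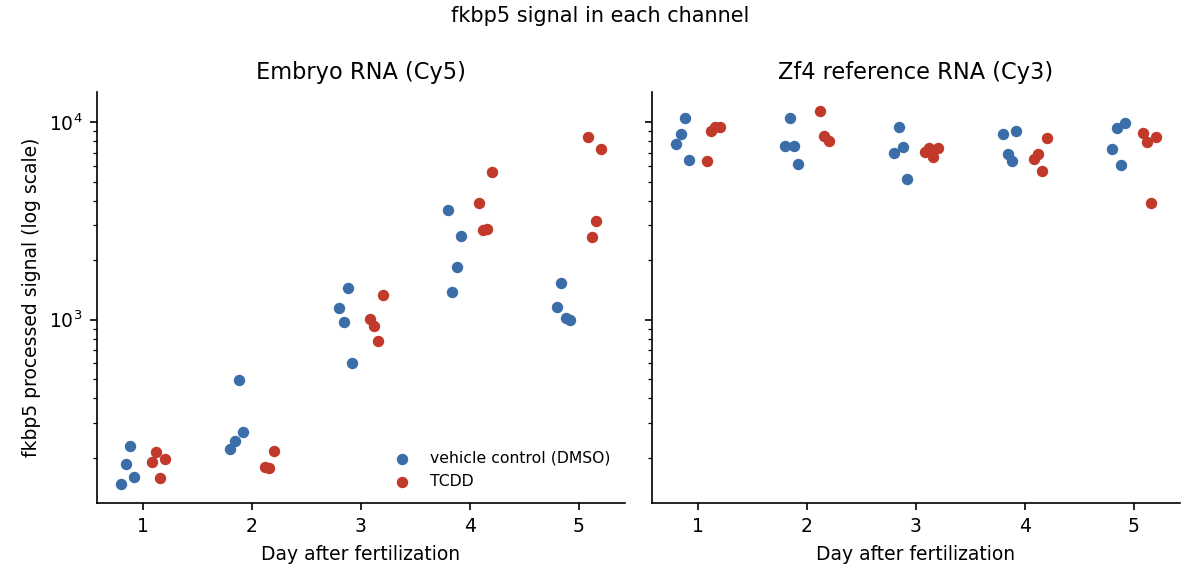
Processed *fkbp5* signal of each array (vertical axis, log scale) by day, in the embryo channel (left) and the Zf4 reference channel (right), for vehicle control and TCDD. The embryo signal ranged from 147 to 8370, and the Zf4 signal from 3880 to 11423.

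The course of *fkbp5* in normal development was taken from the vehicle control groups, with the spread from the fit over all 39 arrays. The control arrays of days 4 and 5 are part of the contrast that chose the gene, so tests are given only for the steps between days 1, 2 and 3. *fkbp5* rose from day 2 to day 3 by 1.91 ± 0.30 (log2, SE; adjusted p = 2.91e-05), a 3.75-fold change seen in 4 of 4 experiments. Of all probes, 6.27% were called higher in that interval, and *fkbp5* had the 130th largest rise. The adjusted p of this rise stayed between 6.52e-06 and 0.0225 under the alternatives. An exact permutation test on the 4 against 4 arrays, two-sided, gave p = 0.0286, the smallest p that 4 against 4 allows.

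The step before it was less certain. From day 1 to day 2 the vehicle control level was higher by 0.78 ± 0.30 (adjusted p = 0.0521, 4 of 4 experiments), just short of the threshold, where 13.5% of all probes were called higher. The exact permutation p was 0.0571. Under the alternatives the adjusted p ran from 0.00944 (without experiment 2, step 1.00) to 0.45 (quantile scaling, step 0.32). Blocking on experiment gave 0.026, and leaving out experiment 3 gave 0.35 (step 0.51).

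The later steps of the vehicle control are given as a description. From day 3 to day 4 the level was 1.05 ± 0.30 higher (log2, SE), a 2.07-fold difference seen in 4 of 4 experiments. From day 4 to day 5 it was 1.00 ± 0.30 lower, a 2.00-fold difference seen in 4 of 4 experiments, and *fkbp5* had the 122nd largest fall of 21494 probes. Day 5 stood 2.74 ± 0.30 above day 1, a 6.67-fold difference. With normexp background correction and loess together the 4 steps were 0.43, 1.05, 0.83 and −0.74 (log2).

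Under TCDD, as a description, the steps were −0.12, 2.76, 1.95 and 0.35 (log2) from each day to the next. The day 2 to day 3 rise was 6.76-fold, starting from a lower day 2 level, and the day 3 to day 4 rise was 3.87-fold. In 3 of 4 experiments the level then went on up from day 4 to day 5. Day 5 stood 30.7-fold above day 1. On day 5 the TCDD level was 2.37-fold above the highest control mean of the course, that of day 4.

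Ordered by mean level, TCDD on day 2, vehicle control on day 1, TCDD on day 1 and vehicle control on day 2 came lowest, and each overlapped the one below it. A step of 1.90 (log2) without overlap led to TCDD and vehicle control on day 3 and vehicle control on day 5, which overlapped, with steps of at most 0.05 between their means. Vehicle control on day 4 came next without overlap, its lowest array (−2.33) just above the highest of vehicle control on day 3 (−2.37). TCDD on day 4 followed, also without overlap, its lowest array (−1.285) just above the highest of vehicle control on day 4 (−1.287). TCDD on day 5 came last and overlapped TCDD on day 4. The day accounted for 86.2% of the *fkbp5* variance over the arrays, treatment for 1.85% and their combination for 7.82%, with 4.16% left among replicates. For the median probe the day took 35.1% and the residual 49.9%.

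Among all probes *fkbp5* had the 15th largest TCDD against vehicle control rise on day 5 and the 142nd on day 4. On day 2 it had the 209th largest fall. These ranks come from the contrast that picked the gene and are given only to place it.

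The other FK506 binding proteins are peptidyl-prolyl isomerases of the cytosol, the endoplasmic reticulum and the mitochondrion, and 12 of them were measured. On days 1 to 4, 0 of the 12 passed the test under TCDD, where 0.014%, 0.703%, 2.75% and 0.893% of all probes were called. On day 5, 1 rose and 1 fell, where 6.27% of all probes were called. *fkbp1b*, whose mammalian counterpart binds ryanodine receptors, rose by 0.59 ± 0.12 (log2, SE; adjusted p = 0.00170, 4 of 4 experiments). *fkbp11*, an endoplasmic reticulum member, fell by 0.69 ± 0.16 (adjusted p = 0.00541, 4 of 4 experiments), while its other probe gave 0.07 (adjusted p = 0.90). *fkbp4*, the closest relative of *fkbp5* in domain layout and its counterpart on steroid receptors in mammals, differed by −0.13 ± 0.10 (adjusted p = 0.51). The family's median difference on day 5 was 0.02, against −0.00 for all probes.

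In normal development the family had courses of its own. Between days 1 and 5 of the vehicle control, 2 of the 12 rose and 7 fell, where 46.7% of all probes were called, 21.3% as higher. *fkbp1b* rose by 3.05 ± 0.12 (log2, SE; adjusted p = 6.82e-20). *fkbp10b*, *fkbp14* and *fkbp7*, which in mammals are endoplasmic reticulum proteins that assist collagen folding or are kin to them, fell by 2.08, 1.97 and 1.74. From day 4 to day 5, the interval of the lower *fkbp5* level, 5 of the 12 fell and 0 rose, where 3.01% of all probes were called lower.

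Of the HSP90 chaperone cycle, 21 of 32 listed genes were measured. On day 5 only *hspa4a*, an HSP110-type exchange factor for HSP70, passed (0.59 ± 0.13, adjusted p = 0.00442, 4 of 4 experiments), a share of the list near the 6.27% of all probes called that day. *bag2*, a cochaperone of HSP70, fell on day 3 (−0.59 ± 0.11, adjusted p = 0.00135) and on day 4 (−0.46 ± 0.11, adjusted p = 0.0279), in 4 of 4 experiments each. On these days 1.68% and 0.684% of all probes were called lower. The HSP90 genes themselves gave 0.08 ± 0.17 (*hsp90aa1.1*, adjusted p = 0.87) and −0.08 ± 0.15 (*hsp90ab1*, adjusted p = 0.85) on day 5. The list's median was 0.04 on day 5.

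Only 3 of 9 listed HSP90 client receptors and their partners were measured. *nr3c1*, the glucocorticoid receptor, was −0.20 ± 0.08 on day 5 (adjusted p = 0.15, lower in 4 of 4 experiments) and between −0.08 and 0.12 on the other days. *ahr2*, the zebrafish receptor that mediates TCDD toxicity, rose on day 4 (0.81 ± 0.16, adjusted p = 0.00553) and day 5 (0.94 ± 0.16, adjusted p = 0.000219), while its other probe gave 0.51 on day 5 (adjusted p = 0.14). *arnt2*, a partner of AHR-family proteins, fell on days 2, 3, 4 and 5 by 0.47, 0.71, 0.57 and 0.62, where 0.563%, 1.68%, 0.684% and 2.63% of all probes were called lower, while its 2 other probes gave −0.20 (adjusted p = 0.51) and −0.00 (adjusted p = 1) on day 5. The mineralocorticoid receptor gene *nr3c2* was not analysed here.

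The list of genes that glucocorticoids raise or hold in mammals or fish had more calls on day 5. Of 31 measured genes 14 rose and 0 fell, where 3.64% of all probes were called higher, and the list's median was 0.51 against −0.00 for all probes. On days 1 to 4, 0 of the 31 passed, where 0.014%, 0.703%, 2.75% and 0.893% of all probes were called. At such shares a count of 0 cannot be told from all probes. The medians of these days were −0.03, 0.02, 0.10 and 0.24. In the fit on the day 5 arrays alone 0 of 31 passed, with 2 probes called in all. There 14 of the 31 were higher at an unadjusted p under 0.05, and 3194 of 21493 probes had such a p. Without experiment 4 the count was 9, all of them among the 14, where 218 of all probes were called higher.

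The largest of these rises belonged to genes that inflammatory cytokines also induce in mammals, and cytokine induction was not tested here. *socs3a*, a suppressor of cytokine signaling, rose by 2.91 ± 0.36 (log2, SE; adjusted p = 7.87e-06), a 7.53-fold change. Its duplicate *socs3b* rose by 2.35 ± 0.30 (adjusted p = 1.21e-05), and *cebpb*, a transcription factor of the acute-phase response, by 1.87 ± 0.22 (adjusted p = 4.42e-06). Each was higher under TCDD in 4 of 4 experiments. *tsc22d3*, the gene for the glucocorticoid-induced leucine zipper, rose by 0.59 ± 0.14 (adjusted p = 0.00704, 4 of 4 experiments), and by 1.21 on its second probe (adjusted p = 0.0299).

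The other 10 that rose, named here after their values were seen, fell into a few kinds. *igfbp1a*, an insulin-like growth factor binding protein, rose by 1.73, *cebpd* by 1.34, and *ddit4*, an inhibitor of mTOR signaling, by 1.24. *sgk1*, the serum- and glucocorticoid-regulated kinase, rose by 0.96 and passed on each of its 4 probes. *dusp1*, a phosphatase of MAP kinases, rose by 0.86, and the NF-kappaB inhibitors *nfkbiaa* and *nfkbiab* rose by 0.86 and 0.70. *gadd45ba*, a stress gene, rose by 0.82, *glulb*, a glutamine synthetase, by 0.66 and *anxa1a*, an annexin, by 0.55. All 10 were higher in 4 of 4 experiments except *ddit4*, at 3 of 4.

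Other members of the list, also singled out after their values were seen, did not pass on day 5. *per1b*, a clock gene, gave −0.18 ± 0.16 (adjusted p = 0.64), *tat*, the liver enzyme tyrosine aminotransferase, −0.72 ± 0.42 (adjusted p = 0.39), and *mt2*, a metallothionein, −0.13 ± 0.11 (adjusted p = 0.57). *hsd20b2*, which inactivates cortisol in fish, gave −0.20 ± 0.30 (adjusted p = 0.81).

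In the vehicle control, 12 genes of the list rose and 2 fell from day 3 to day 4, where 5.89% of all probes were called higher and 6.96% lower. From day 4 to day 5, 4 rose and 1 fell, where 4.95% of all probes were called, 1.93% higher and 3.01% lower. *tsc22d3* rose by 0.73 ± 0.14 (adjusted p = 0.000333) from day 3 to day 4 and differed by 0.32 ± 0.14 (adjusted p = 0.26) from day 4 to day 5, when *fkbp5* was lower by 1.00.

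**Figure D4:**
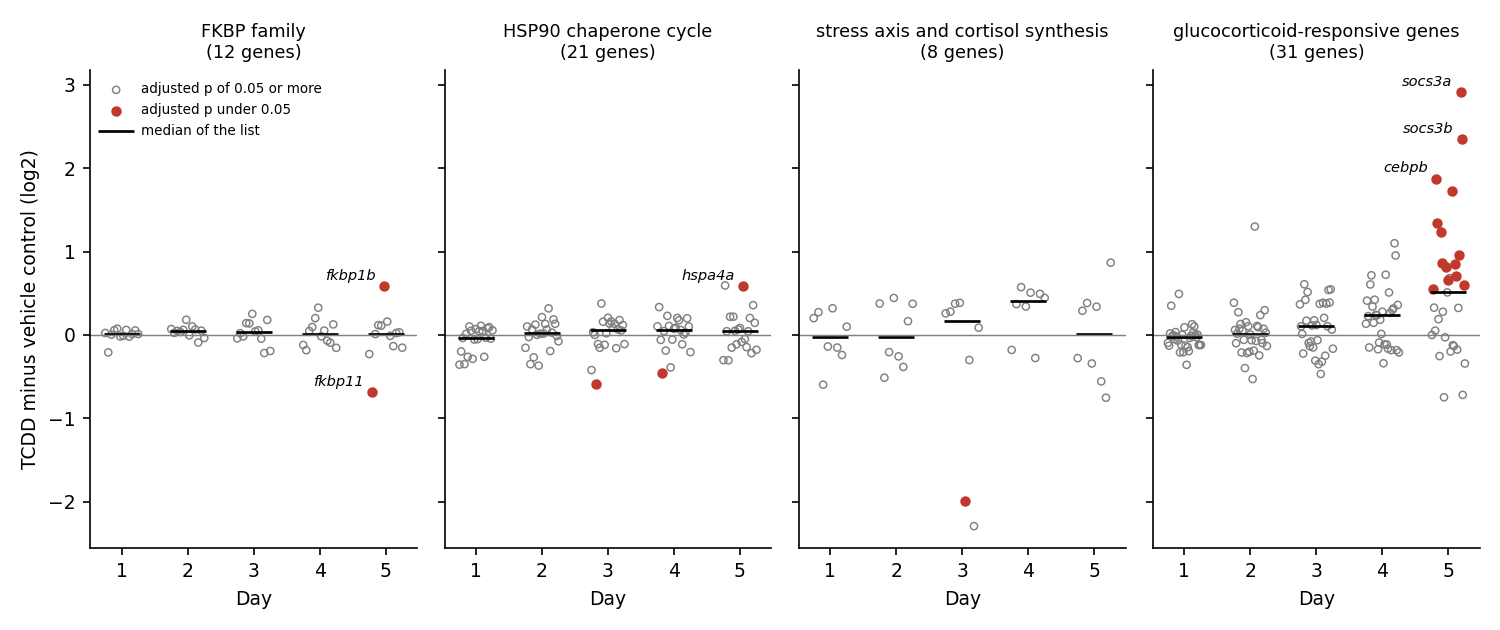
TCDD minus vehicle control (log2, vertical axis) by day for each measured gene of 4 lists, with filled points for an adjusted p under 0.05 and a bar for the list's median. On day 5, 14 of 31 glucocorticoid-responsive genes were filled, where 6.27% of all probes were called. So were 2 of 12 FK506 binding proteins, 1 of 21 genes of the HSP90 cycle and 0 of 8 of the stress axis. The point called on day 3 in the stress axis panel is *mc2r*, which was at background under TCDD.

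Of the stress axis and the enzymes that make cortisol, 8 of 25 genes were measured. On day 5, 0 of the 8 passed, where 6.27% of all probes were called, so a list this short cannot be told from all probes. *star*, which brings cholesterol to the first step of steroid synthesis, gave 0.87 ± 0.28 on day 5 (adjusted p = 0.0651, 3 of 4 experiments). *pomca*, the precursor of the hormone ACTH, gave −0.75 ± 0.90 (adjusted p = 0.74) and was well above background on 32 of 39 arrays. *mc2r*, the ACTH receptor, was called lower on day 3 (adjusted p = 0.0291) but was well above background on 0 of 4 TCDD and 1 of 4 control arrays that day, which allows only a bound of at least 1.02-fold. The AKT gene measured, *akt2*, whose phosphatase FKBP5 scaffolds in mammals, gave 0.27 on day 5, was not called on any day and was well above background on 12 of 39 arrays. Over the pathway lists, with the AHR battery and without the FK506 binding proteins, 23 genes were called on at least 1 day, where 7.85% of all probes were. Of the 23, 14 were the glucocorticoid-responsive genes called on day 5. These lists held 21, 3, 31, 8, 1 and 7 measured genes, with *ahr2* listed both as a receptor and in the AHR battery.

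Some markers of leukocytes also rose on day 5. Of 7 measured neutrophil and macrophage markers 4 rose and 0 fell on day 5. On days 3 and 4 *mpx* alone was called higher. The shares of all probes called higher on days 3, 4 and 5 were 1.07%, 0.209% and 3.64%. *lyz*, *coro1a* and *mpeg1.1* were not called on day 5, and the 7 differences ran from −0.12 to 4.05 (log2). *mmp9* and *mmp13a*, matrix metalloproteinases that leukocytes and injured epithelium make, rose by 4.05 ± 0.59 (log2, SE; adjusted p = 5.68e-05) and 2.82 ± 0.43 (adjusted p = 8.09e-05). *lcp1*, a leukocyte plastin, rose by 0.74 ± 0.16 (adjusted p = 0.00247). *mpx*, the neutrophil myeloperoxidase gene, was well above background on 4 of 4 TCDD arrays and 0 of 4 control arrays of day 5. That allows only a bound of at least 1.50-fold higher, which was not tested. On day 4 *mpx* was likewise well above background on 4 of 4 TCDD and 0 of 4 control arrays. The bound of that day was at least 1.37-fold higher, also not tested. On day 3 *mpx* was well above background on 3 of 4 TCDD and 0 of 4 control arrays. The day 3 bound was at least 1.17-fold higher, not tested either. The day 5 call of *mpx* (limma, adjusted p = 0.000105) belongs to the log2 ratio, whose control values were at background. So do its calls on days 3 and 4. Such a bound sets the mean embryo signal of the bright group against the lowest signal still well above background on each dim array, or the probe's own where higher. These signals were taken after normexp background correction (offset 50), loess of both channels together and quantile scaling of average intensity between arrays.

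The mean log2 ratio of the 6 markers without *mpx* ran from 2.04 to 3.11 in the vehicle control and from 2.99 to 4.49 under TCDD on day 5. On day 4 these ranges were 1.45 to 2.26 and 2.02 to 2.66. The median difference of the 7 markers on day 5 was 1.17, or 0.74 with *mpx* at its bound. Among liver markers 2 of 6 rose on day 5, against the same 3.64% of all probes, *cp* (ceruloplasmin, 1.07 ± 0.23, adjusted p = 0.00287) and *fgb* (a fibrinogen chain, 0.66 ± 0.15, adjusted p = 0.00597), both acute-phase proteins in mammals. The liver markers *fabp10a*, *tfa*, *fga* and *serpina1* were not called that day. The 6 differences ran from −0.20 to 1.07 (log2), with a median of 0.25 and 4 above 0. The mean of the liver list ran from 6.20 to 6.61 in the vehicle control and from 6.38 to 7.12 under TCDD. Markers of erythrocytes, fast skeletal muscle, epidermis, neurons, heart muscle and lens gave 0 calls on days 4 and 5. On these days 0.893% and 6.27% of all probes were called, so lists this short cannot be told from all probes. Their median differences on day 5 were, in that order, 0.19, 0.05, 0.41, −0.25, −0.55 and −0.25 (log2). Every measured neuron, heart muscle and lens gene was lower under TCDD on day 5, though not called. The heart muscle list ran from 2.92 to 3.87 in the vehicle control and 2.28 to 3.00 under TCDD on day 5. Its means include *myh6*, well above background on 0 of 4 TCDD and 4 of 4 control arrays that day. For that gene only a bound of at least 1.13-fold lower is allowed. The part of these cell types in the *fkbp5* values was not tested.

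Some AHR target genes were called higher from earlier days on. Of 7 measured genes of the AHR battery, 1, 3, 3, 3 and 4 rose on days 1 to 5, where 0.00465%, 0.14%, 1.07%, 0.209% and 3.64% of all probes were called higher. The 4 of day 5 include *ahr2*, which is also in the receptor list. *foxq1b*, a forkhead gene raised by TCDD in zebrafish, rose by 0.74 to 0.95 on days 2 to 5, most on day 4. *wfikkn1* rose by 1.67 on day 2 and 1.03 on day 3, and differed by 0.46 on day 5 (adjusted p = 0.30). *nqo1*, a quinone reductase, rose by 0.46 on day 5. *cyp1d1* and *slc16a9a* were not called on any day. Over the 19 paired differences the correlation of *cyp1a* with *fkbp5* was −0.08. For other genes of the battery it was 0.55 (*ahr2*), 0.40 (*nqo1*), 0.22 (*foxq1b*), −0.02 (*cyp1d1*) and −0.54 (*wfikkn1*). These correlations were not tested.

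Likeness to *fkbp5* was measured by Pearson's r over 6201 named genes with a value on every array and a signal well above background throughout. All genes share the same arrays and the same 5 days, so these values describe shape and were not tested. Over the 39 arrays the most similar were *zgc:66473* (r = 0.950, Spearman's rho = 0.892), *fhl3b* (0.947, 0.933), *sb:cb118* (0.944, 0.907), *cdipt* (0.943, 0.882), *cptp* (0.940, 0.911) and *klhl24b* (0.939, 0.885). The most opposed were *phc1* (−0.954, −0.940), a Polycomb gene, *aurkb* (−0.945, −0.902), a mitotic kinase, and *tcerg1a* (−0.939, −0.920). The median gene had r = −0.12, and 64 genes had r above 0.9. Without the 2 arrays farthest from the *fkbp5* median the 6 highest stayed between 0.934 and 0.956, and within the scan sessions of 24 and 11 arrays between 0.924 and 0.969. None of the 6 stayed among the first 50 once the mean of each group was taken off, so this likeness lay in the course of days and treatments.

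Over the 19 TCDD minus vehicle control differences, taken within experiments, the most similar genes were *acsl4b* (r = 0.912, rho = 0.853), *bzw1b* (0.889, 0.788), *jak1* (0.888, 0.781), *hk2* (0.883, 0.805), *ctnna1* (0.882, 0.807) and *rhcgb* (0.882, 0.918). *acsl4b* encodes an acyl-CoA ligase, *jak1* a kinase of cytokine receptors, *hk2* a hexokinase, *ctnna1* alpha-catenin and *rhcgb* an ammonia channel of fish skin ionocytes. As a description, since they were chosen for this likeness, their day 5 differences ran from 0.43 (*ctnna1*) to 1.22 (*bzw1b*). Without the 2 pairs farthest from the median *fkbp5* difference their r ran from 0.827 to 0.955. The mean of each day was not taken off these differences, so a shared course over days, day 5 included, is part of each r. Of the glucocorticoid-responsive list, *glulb* ranked 7th of the 6201 genes (r = 0.877), *sgk1* 9th (0.872), *socs3b* 12th (0.853) and *socs3a* 13th (0.850), and *tsc22d3* ranked 239th (0.661). Others of the same list lay far down, with *klf15* at 4165th (−0.20), *cry2* at 5067th (−0.35), *angptl4* at 5240th (−0.39) and *zbtb16a* at 5315th (−0.40). These members were singled out after their values were seen.

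**Figure D5:**
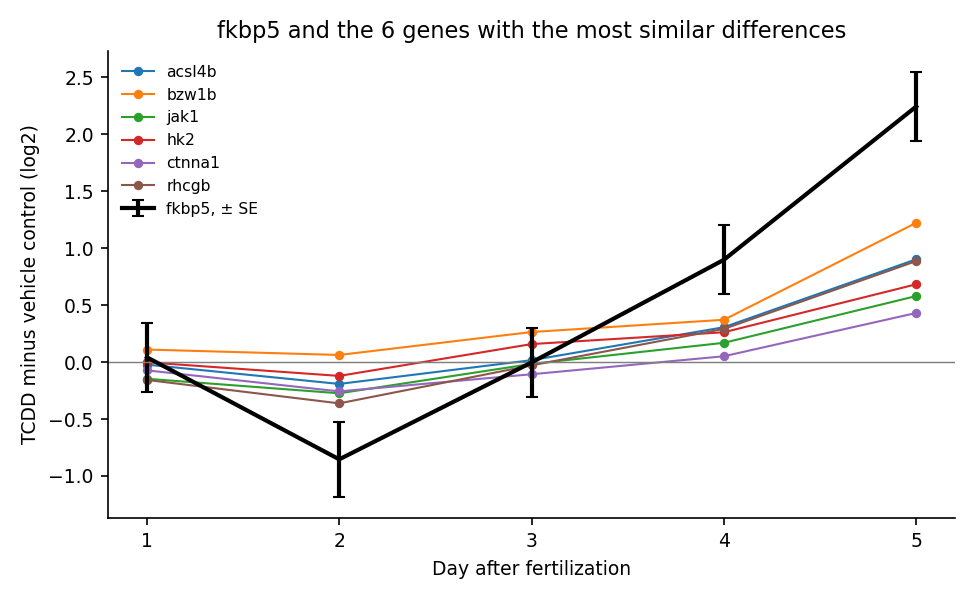
Mean TCDD minus vehicle control difference (log2, vertical axis) by day for *fkbp5* (black, ± SE) and the 6 genes whose 19 paired differences were most like it. *fkbp5* ran from −0.85 on day 2 to 2.25 on day 5, and the other genes reached 0.43 to 1.22 on day 5.

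The genes next to *fkbp5* were looked at by position. Neighbours were taken from the RefSeq order of the GRCz12tu assembly, used here only for that. Of the 20 nearest protein-coding genes (10 on each side), 10 were measured, and 0 rose under TCDD on any day. At most 3.64% of all probes were called higher on a day, so a list this short cannot be told from all probes. Of the 10, *entpd8* was well above background on only 2 of 39 arrays. The green cone opsin gene *opn1mw4* fell on days 2, 3, 4 and 5 by 0.43, 0.53, 0.37 and 0.43 (adjusted p between 0.000164 and 0.0188). On these days 0.563%, 1.68%, 0.684% and 2.63% of all probes were called lower. Its second probe gave 0.22 on day 4 (adjusted p = 0.98) and −0.15 on day 5 (adjusted p = 0.89). The neighbouring green cone opsin genes *opn1mw1* and *opn1mw2* gave −0.19 and −0.08 on day 5. *opn1mw3*, another gene of this kind, was well above background on 1 of 39 arrays, and none of these 3 genes was called on any day. RNA of related genes can bind the same probe. *trub2*, *srsf3a* and *slc6a22.1*, which are also close by, gave 0.18, 0.16 and 0.05 on day 5 (adjusted p of 0.21, 0.65 and 0.91).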

How the data were processed

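RNA from pools of zebrafish embryos was hybridized with Zf4 reference RNA to Agilent 2-colour arrays, and the authors read them with Agilent Feature Extraction 8.1.1 (submitters' processing notes). The deposited log10 ratios (Cy5 embryo over Cy3 reference) follow that software's background subtraction and dye normalization, with none between arrays. The deposited intensity columns give each channel, and the deposited error of the ratio is a score set by the software. The authors' series table held the same log10 ratios (880425 of 880425 values equal within 1e-06). The deposited values were turned into log2 ratios, and spots marked as outliers were left out. The genome build behind the probes is not given in the sources used here, and the number of arrays limits the precision.

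A mean for each of the 10 groups was fitted over all 39 arrays with limma 3.58.1 (R 4.3.3), and p-values were adjusted by Benjamini-Hochberg over all probes with a value (up to 21495), with a threshold of 0.05. Data were simulated for TCDD against vehicle control on day 5. Of 200 changed probes, 60.5% were recovered at a change of 1 (log2) and 86% at a change of 2. With these, 5 and 3 unchanged probes were called among 21495. The simulated noise was normal and independent between arrays and probes, so it held no deviation shared within an experiment or scan session. Genes were named by RefSeq identifier (5592 of 6043 matched) or symbol, and 10303 probes had a current symbol. For a gene with several probes the one with the highest mean signal was used. Replicate numbers mark the independent experiments of the study's methods, and deviations from group means correlated more for same-numbered arrays of a day (median r = 0.23) than for others (−0.07). Genes were named by rule: *fkbp5*, *cyp1a*, the partners listed, at most 3 called genes per list and day, and the 6 nearest and 3 farthest genes in likeness. Further genes of the glucocorticoid-responsive, leukocyte, liver, heart muscle, AHR, stress axis and neighbour lists were named after their values were seen. The gene, the lists and the tests were chosen with earlier results of these data known. The values of 1 listed gene are not reported here. Sequences were not used here. Alternatives were a replicate block, scan session as a block, normexp (offset 50) with loess, the embryo channel alone, quantile or median scaling, array weights, other filters, and each experiment left out.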

Additional observations from a re-analysis of the deposited data

Results flagged for a closer look

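In 2 of 22 sets of 4 values (the levels of *fkbp5* and *cyp1a* in each group of 4 arrays, and the *fkbp5* differences of 4 experiments), 1 array stood apart from the rest, where chance marks about 1 in 20. In the vehicle control on day 5 the array of experiment 4, at −3.31, lay below the other 3 (−2.67 to −2.57), a gap of 0.867 of the group's range. Under TCDD on day 5 the array of experiment 2, at −1.60, lay below the other 3 (−0.29 to −0.07), a gap of 0.855 of the range. Without experiment 2 the day 5 difference of *fkbp5* was 2.66 (log2), and without experiment 4 it was 1.96.

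The *fkbp5* difference between TCDD and vehicle control had opposite signs on different days. It was negative in 3 of 3 experiments on day 2 (mean −0.85, or −0.42 with normexp and loess) and positive in 4 of 4 on days 4 and 5. Day 4 exceeded day 2 by 1.75 and day 5 exceeded day 2 by 3.10 (log2). The difference between days was not tested, since these values picked the gene.

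The TCDD effect on 3 genes of the glucocorticoid-responsive list differed between days in the test of the day by treatment combination: *socs3a* (adjusted p = 0.0189), *socs3b* (adjusted p = 0.0258) and *cebpb* (adjusted p = 0.0258). Of all probes 0.0931% passed that test (20 of 21491).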

How the results depend on the processing

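Of 364 values that 26 results took under the alternatives, 334 kept their side of the threshold or stayed close to the value reported, and no value that passed the test changed sign. Differences of *fkbp5* near 0 did change sign: they ran from −0.16 to 0.19 on day 1, from −0.21 to 0.24 on day 3, and from −0.45 to 0.12 for the TCDD step from day 1 to day 2. The TCDD against vehicle control difference ran from −0.97 to −0.42 on day 2, from 0.74 to 1.02 on day 4 and from 1.80 to 2.66 on day 5 (1.80 with normexp and loess, 2.16 without the TCDD array of experiment 3, an alternative chosen after seeing the data because that array had the lowest weight). With normexp and loess the TCDD steps were 1.50 (day 2 to 3) and 3.31 (day 1 to 5), and quantile scaling gave 4.35 for the latter. The vehicle control step from day 1 to day 2 passed with the replicate block (0.78), the embryo channel alone (0.74), median centring (0.78) and only probes above background (0.78), missed the threshold with the other settings (0.32 with quantile scaling), and ran from 0.51 to 1.00 with an experiment left out, passing only without experiment 2. The later control steps carry no test here. From day 3 to day 4 the value was 1.05 when only the groups compared were fitted and 0.96 to 1.2 with an experiment left out. From day 4 to day 5 it was −0.998 with the replicate block, the scan session as a block or only probes above background, −0.96 with quantile scaling, −1.01 with median centring, −1.09 with array weights, and −1.24 to −0.82 with an experiment left out. The replicate block raised the number of probes called under TCDD from 3 to 9 on day 1, from 151 to 437 on day 2, from 591 to 941 on day 3 and from 192 to 339 on day 4, and changed no other tested *fkbp5* call.

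Fitting only the groups compared leaves few degrees of freedom. There *cyp1a* missed the threshold on days 1 (4.31) and 2 (6.33), and 4 pathway genes were called on any day against 23, with 0 of the glucocorticoid-responsive list on day 5 against 14, and 0 of the FK506 binding proteins against 2. All calls on day 5 fell from 1348 to 2 in that fit (3194 probes at an unadjusted p under 0.05), and ran from 461 to 1139 with 1 experiment or array left out. The list's count on day 5 ran from 9 to 15 with an experiment left out, and that of the FK506 binding proteins from 1 to 2, with 1 in the embryo channel alone. On day 3 the share of higher among called probes was 39.1%, and 28.2% with normexp and loess or 28.0% in the embryo channel alone, against 50.6% with the replicate block and 51.3% with the scan session as a block, and on day 2 it was 19.9% against 45.5% in that channel (10 of 22 calls). Of the 6 genes nearest over levels, 3 stayed among the first 50 in the embryo channel alone and 0 with group means taken off, and of the 6 nearest over paired differences, 3 stayed in the embryo channel alone. The causes were not tested. Signal over background limits days 1 and 2 most, where the embryo signal of *fkbp5* was lowest.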
